A study of Homo sapiens with 9 samples.

Results

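The genes described here encode the atlastins and other proteins that give the endoplasmic reticulum (ER) its shape: ATL1, ATL2, ATL3, RTN3, RTN4, REEP3, REEP5 and CKAP4. They were chosen by name with results of these arrays already known, in particular their signals in miR-376a*A and miR-376a*G cells against control cells. Every probe set whose annotation gave one of these names as its single gene symbol was taken. That rule found 7 of the 8 genes, out of 19775 single symbols on the array, and 17 probe sets, out of 41091 with a single symbol. No probe set carried ATL2 alone in the annotation used here, and ATL2 was not analysed here. The differences of the 17 probe sets are therefore a description, and nothing is read from which of them pass a test. The same holds for the difference between the 2 forms of the miRNA, which is the difference of the known contrasts on the same arrays.

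Expression was measured on 9 Affymetrix arrays, 1 for each culture of U87, an established line of human glioma cells. In each culture 100000 cells were transfected with Lipofectamine RNAiMAX and a miRNA duplex at 50 nM, and RNA was taken after 24 h. One group received miR-376a*A, another received miR-376a*G, and the last received a control miRNA. Each of the 3 groups had 3 biological replicates, so all groups share the cell line, the reagent and the dose. In published work miR-376a*A is the unedited form, while miR-376a*G stands for the product of A-to-I editing within the seed. All results are for transient overexpression in a single cell line. Both forms were compared with the same 3 control arrays, and no untransfected cells were among the samples. A change with both forms and an opposite change with the control miRNA therefore cannot be told apart. The labels do not describe the separate cultures further, so the tests measure the spread between these samples.

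The ER is a continuous membrane of flat sheets and branching tubules. Atlastins are membrane GTPases that fuse tubules into a network, while reticulons (RTN) and REEP proteins insert hairpins that curve the membrane into tubules, and CKAP4 (CLIMP-63) is a spacer and anchor of sheets. A miRNA pairs with target mRNAs chiefly through its seed, bases 2 to 8, and lowers the level or the translation of the mRNA.

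The miRNA is shown because the 2 forms are what the groups differ in. RefSeq (GRCh38.p14) lists the strand once called miR-376a* as hsa-miR-376a-5p, from MIR376A1 on the plus strand at chr14:101040788-101040809, and a close relative from MIR376A2 at chr14:101040080-101040100. Both are printed 5′ to 3′ with the seed in capitals, and their seeds, UAGAUUC and GUAGAUU, are different. The labels give no sequence for the transfected duplexes, so the lines below are the reference and not the reagents.
hsa-miR-376a-5p: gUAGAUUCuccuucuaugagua
hsa-miR-376a-2-5p: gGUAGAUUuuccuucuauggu

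The deposited values are linear signal intensities, and every array had the same trimmed mean signal (100.009 to 100.011) with a median between 18.0 and 20.4. Differences are on the scale log2(signal + 16), on which 1 unit is a doubling for bright probe sets and less than a doubling for dim ones, and folds are on that scale too. A probe set was kept where its mean over the arrays reached the 40th percentile of all probe sets, equal to a signal of 11.3. That left 32768 probe sets, and all 17 of the ER-shaping genes were among them. "Passed" means a limma adjusted p under 0.05 (Benjamini-Hochberg over the 32768), and errors of differences are standard errors (SE). Control arrays were more scattered than miRNA arrays, with residual spreads of 0.114 to 0.166 against 0.102 to 0.114 on the log2 scale. In RNA of a whole culture, fewer cells with a transcript and less of it per cell cannot be told apart. Of the neural stem or glioma markers VIM, CD44 and TNC were bright, with median signals of 2110, 1940 and 1550, while NES (72.1) and SOX2 (22.1) were lower. Mesenchymal FN1 (2030), COL1A1 (1890) and COL1A2 (1370) were also bright, while THY1 was low (19.8). The astroglial markers were split, with SLC1A3 (176) and ALDH1L1 (32.1) kept and GFAP (1.54), S100B (1.18) and AQP4 (8.46) below the filter. Neuronal SNAP25 (421), SYT1 (116) and RBFOX3 (12.6) were kept, and STMN2 (2.64) was not. Of the endothelial markers PECAM1 (44.8) was kept, and CDH5 (5.76) and VWF (3.31) were not. Leukocyte CD3E (14.8) was kept, and PTPRC (4.48) and CD14 (0.689) were not. Epithelial KRT8 (28.5) and EPCAM (15.2) were kept, and KRT18 (11.8) and CDH1 (7.05) were not.

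ATL3 had the largest difference among the ER-shaping genes. ATL3 is the atlastin of many non-neuronal tissues and also an ER-phagy receptor. Its probe set 224893_at read 1226.6, 1105.8 and 1070.6 with miR-376a*A, 1044, 1199.8 and 1142.5 with miR-376a*G, and 278.2, 212.9 and 216 with the control miRNA. All 6 miRNA arrays stood far above all 3 control arrays, and the 2 forms overlapped. Group means were 1134 ± 81.8, 1129 ± 78.8 and 235.7 ± 36.8 (SD, n = 3). The difference from control was 2.20 ± 0.0973 with miR-376a*A (4.59-fold) and 2.19 ± 0.0973 with miR-376a*G (4.57-fold), the 8th and 7th largest in size of 32768. It stayed between 2.13 and 2.32 when any single array was left out. Between the forms it was 0.01 (95% interval -0.20 to 0.22).

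**Figure D1:**
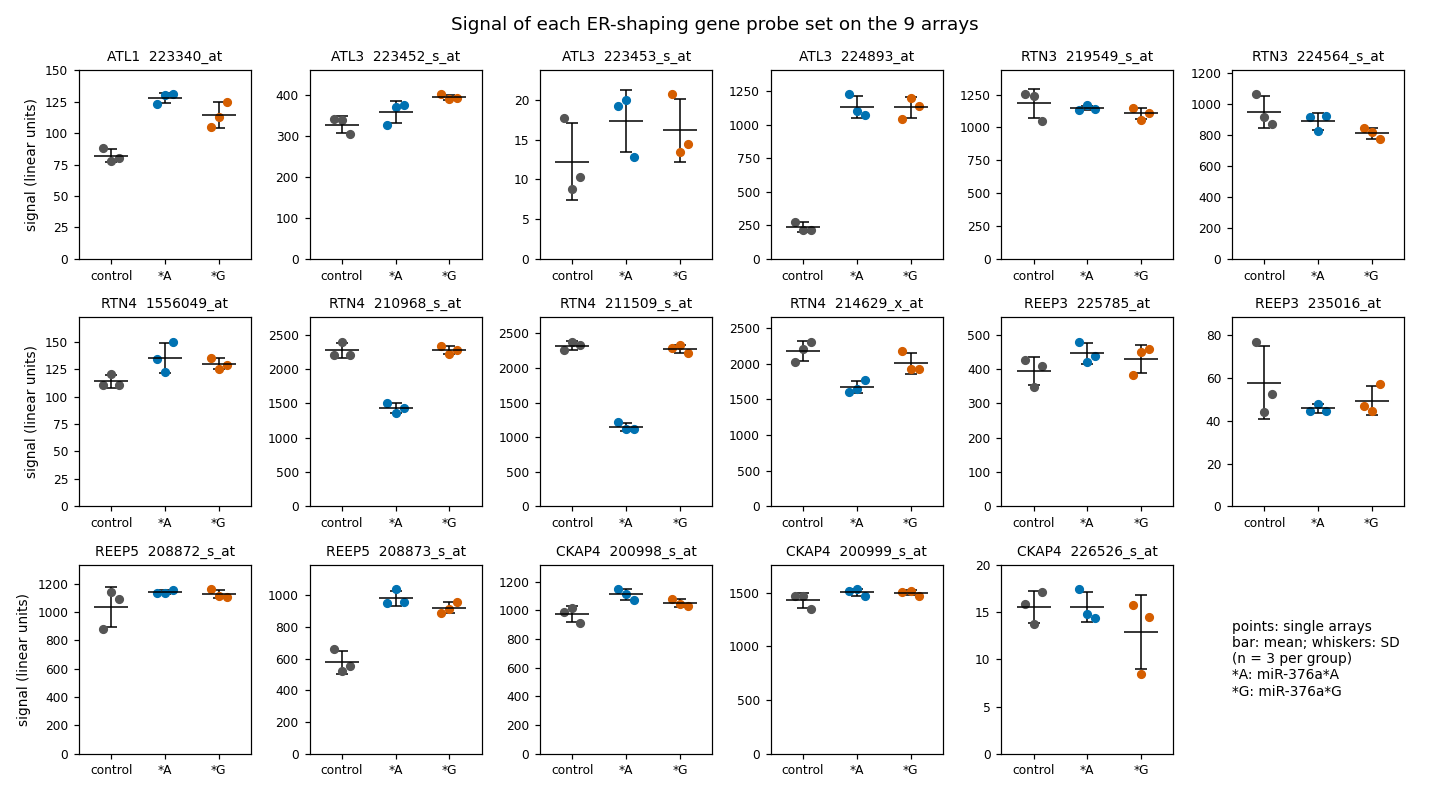
Signal on each array (linear axis) of the probe sets of ATL1, ATL3, RTN3, RTN4, REEP3, REEP5 and CKAP4, by group. Points are arrays, bars are group means and whiskers are SD. ATL3 224893_at lies between 1044 and 1226.6 on the miRNA arrays and between 212.9 and 278.2 on the control arrays, and RTN4 211509_s_at is low only in the miR-376a*A group.

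The other ATL3 probe sets did not share that difference. Probe set 223452_s_at read 327.9, 370.2 and 376.6 with miR-376a*A, 401.9, 389.4 and 392.2 with miR-376a*G, and 341.1, 339 and 303.8 in control. The miR-376a*G arrays were the highest and overlapped neither other group, while miR-376a*A and control overlapped. The difference from control was 0.12 ± 0.0747 and 0.26 ± 0.0747 for the A and the G form, and between the forms it was -0.14 (95% interval -0.30 to 0.03). The dim probe set 223453_s_at had means of 17.34 ± 3.96, 16.17 ± 3.98 and 12.24 ± 4.82 (SD, n = 3), close to the filter, and its 3 groups overlapped. An _at probe set is designed for 1 transcript and an _s_at probe set may match several transcripts of a gene or family. Within each array the log2 ratio (16 added to each signal) of 224893_at to 223452_s_at was 1.85, 1.54 and 1.47 with miR-376a*A, 1.34, 1.58 and 1.5 with miR-376a*G, and -0.28, -0.63 and -0.46 in control. The 2 probe sets of the gene thus differed from control unequally, and which transcripts each detects was not analysed here.

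ATL1, the atlastin best known from neurons and mutated in a hereditary spastic paraplegia, was measured by 223340_at. Its signals were 123.5, 130.1 and 130.9 with miR-376a*A, 105.1, 112.9 and 125.1 with miR-376a*G, and 87.8, 78.2 and 80.2 in control. Every miRNA array was above every control array. The difference from control was 0.56 ± 0.0827 (1.47-fold) and 0.41 ± 0.0827 (1.33-fold). The mean was highest with miR-376a*A and lowest in control, but the 2 forms overlapped (0.15, 95% interval -0.03 to 0.33).

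RTN4 had the largest differences between the 2 forms among these genes. RTN4 encodes Nogo, known as an inhibitor of neurite growth as well as a tubule-shaping reticulon. Its probe set 211509_s_at read 1213.8, 1116.6 and 1117.4 with miR-376a*A, 2290.1, 2325.8 and 2214.8 with miR-376a*G, and 2253.3, 2376.7 and 2330.4 in control. The miR-376a*A arrays were far below both other groups, which overlapped each other. Group means were 1149 ± 55.9, 2277 ± 56.6 and 2320 ± 62.3 (SD, n = 3). Between the forms the difference was -0.98 ± 0.0554 (1.97-fold lower with miR-376a*A, 95% interval -1.1 to -0.86), and it ranked 347th in size of 32768. Against control it was -1.0 ± 0.0554 with miR-376a*A and -0.03 ± 0.0554 with miR-376a*G (95% interval -0.15 to 0.09).

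A second probe set, 210968_s_at, also read lowest with miR-376a*A. It read 1504.3, 1359 and 1432.3 with miR-376a*A, 2338.9, 2216.4 and 2277.9 with miR-376a*G, and 2210.6, 2398.5 and 2210.9 in control. Here too the miR-376a*A arrays overlapped neither other group, and miR-376a*G overlapped control. The difference between the forms was -0.66 ± 0.0586 (1.59-fold lower with miR-376a*A, 95% interval -0.79 to -0.54). Against control it was -0.66 ± 0.0586 for miR-376a*A (1.58-fold lower) and 0.00 ± 0.0586 with miR-376a*G.

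The probe set 214629_x_at, whose suffix marks probes that may cross-hybridise, showed a smaller difference. Its signals were 1601.8, 1644.2 and 1767.8 with miR-376a*A, 2174.6, 1922.5 and 1924.3 with miR-376a*G, and 2024.1, 2212.3 and 2309.1 in control. The miR-376a*A arrays were again lowest without overlap. The difference between the forms was -0.26 ± 0.0697 (1.20-fold lower, 95% interval -0.41 to -0.11). It lay between -0.30 and -0.20 when any single array was left out. Against control the difference was -0.38 ± 0.0697 with miR-376a*A and -0.12 ± 0.0697 with miR-376a*G.

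The fourth RTN4 probe set went the other way. Probe set 1556049_at read 134, 122.6 and 150 with miR-376a*A, 135.7, 125.5 and 129.1 with miR-376a*G, and 110.7, 120.8 and 110.7 in control. Both miRNA groups lay just above control without overlap, by 0.22 ± 0.0843 and 0.17 ± 0.0843. The forms overlapped (0.05, 95% interval -0.13 to 0.23). Within each array the log2 ratio of 211509_s_at to 214629_x_at was -0.40, -0.55 and -0.65 with miR-376a*A, 0.07, 0.27 and 0.20 with miR-376a*G, and 0.15, 0.10 and 0.01 in control. The pair was chosen as the bright RTN4 probe sets farthest from and nearest to control with miR-376a*A, so the ratio is a description. As their differences above show, the RTN4 probe sets differed unequally with miR-376a*A. The difference between the forms was not the same for all of them.

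**Figure D2:**
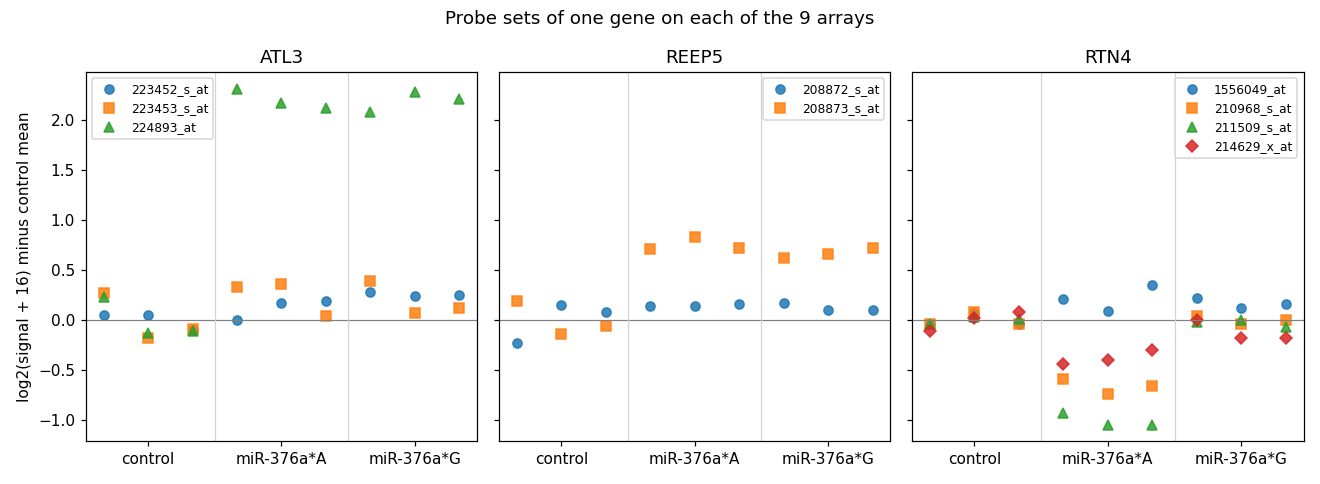
Log2 signal of the probe sets of ATL3, REEP5 and RTN4 on each of the 9 arrays, less the control mean of the same probe set. Points are arrays, by group. Ratios between probe sets are given in the text and are not drawn. The ATL3 ratio is at least 1.34 on the miRNA arrays and at most -0.28 on the control arrays. The RTN4 ratio is below 0 only with miR-376a*A.

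RTN3, a reticulon and an ER-phagy receptor, differed little. Probe set 219549_s_at read 1135.2, 1167.9 and 1138.6 with miR-376a*A, 1147.5, 1058.8 and 1113 with miR-376a*G, and 1251.8, 1242 and 1052.5 in control. Its groups overlapped in every comparison, with differences from control of -0.04 ± 0.071 and -0.09 ± 0.071. Probe set 224564_s_at read 918.2, 823.6 and 922.5 with miR-376a*A, 841.6, 816.2 and 772.4 with miR-376a*G, and 1061.4, 912.3 and 866.9 in control. The miR-376a*G arrays lay below control without overlap (-0.22 ± 0.08), and miR-376a*A overlapped control (-0.09 ± 0.08). Between the forms the 2 probe sets gave 0.05 (95% interval -0.10 to 0.21) and 0.13 (95% interval -0.04 to 0.30).

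REEP5, an abundant hairpin protein of ER tubules, was higher with both forms by 1 of its 2 probe sets. Probe set 208873_s_at read 953.8, 1038.1 and 956.5 with miR-376a*A, 891.8, 917.1 and 958.2 with miR-376a*G, and 658.9, 522.1 and 552.9 in control. All miRNA arrays were above all control arrays, and the forms overlapped. The difference from control was 0.76 ± 0.0816 (1.69-fold) and 0.67 ± 0.0816 (1.59-fold), and between the forms it was 0.09 (95% interval -0.09 to 0.27).

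The other REEP5 probe set, 208872_s_at, read 1134, 1135.7 and 1157.9 with miR-376a*A, 1159.6, 1109.7 and 1107 with miR-376a*G, and 877.5, 1141.9 and 1091 in control. Only control replicate 1 was low, and the groups overlapped, with differences from control of 0.15 ± 0.0836 and 0.13 ± 0.0836. The log2 ratio of 208873_s_at to 208872_s_at was -0.25, -0.13 and -0.27 with miR-376a*A, -0.37, -0.27 and -0.21 with miR-376a*G, and -0.40, -1.11 and -0.96 in control. Control replicate 1, which was high by the first probe set and low by the second, lay close to the miRNA arrays in that ratio.

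REEP3, which clears ER membrane from chromosomes in mitosis, had overlapping groups in all comparisons. Probe set 225785_at read 479.4, 420.8 and 436.7 with miR-376a*A, 382.4, 448.8 and 457.6 with miR-376a*G, and 425.3, 347.1 and 408.1 in control. Its differences from control were 0.18 ± 0.0927 and 0.12 ± 0.0927. The dimmer 235016_at had group means of 45.72 ± 1.85, 49.45 ± 6.81 and 57.77 ± 17.1 (SD, n = 3), the last set by control replicate 1 at 76.9 against 44.1 and 52.3. Its differences were -0.23 ± 0.138 and -0.15 ± 0.138. Between the forms the 95% intervals were -0.15 to 0.25 and -0.38 to 0.22.

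CKAP4, the sheet protein, lay slightly above control without overlap only by probe set 200998_s_at. Probe set 200998_s_at read 1146, 1114.4 and 1072.3 with miR-376a*A, 1080.2, 1046.3 and 1029 with miR-376a*G, and 991.3, 1014.6 and 910.7 in control. Neither miRNA group overlapped control, and the differences were 0.19 ± 0.061 (1.14-fold) and 0.11 ± 0.061 (1.08-fold). The brightest probe set, 200999_s_at, read 1512.4, 1529.6 and 1468.7, then 1507.8, 1517.8 and 1469.2, and 1472.2, 1463.4 and 1343.5 in control. Its groups overlapped, with differences of 0.08 ± 0.0561 and 0.07 ± 0.0561. The dim 226526_s_at, with means of 15.5, 12.88 and 15.51 near the filter, overlapped too (0.00 ± 0.117 and -0.13 ± 0.117). Between the forms the 95% intervals of the 3 probe sets were -0.05 to 0.21, -0.12 to 0.13 and -0.12 to 0.39.

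**Figure D3:**
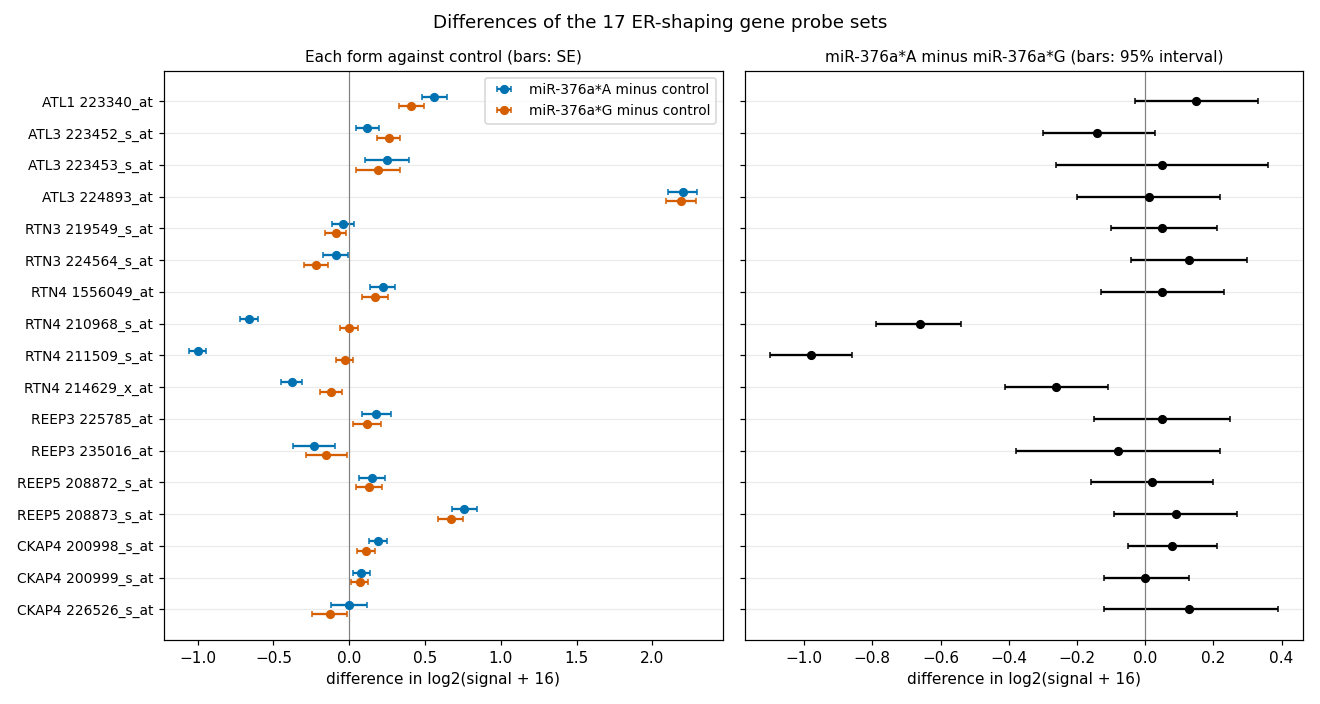
Difference on the log2(signal + 16) scale for each of the 17 probe sets in the 3 comparisons. Bars are SE for each form against control and 95% intervals between the forms. ATL3 224893_at is at 2.20 and 2.19 against control and at 0.01 between the forms, and RTN4 211509_s_at is at -1.0 with miR-376a*A, at -0.03 with miR-376a*G and at -0.98 between them.

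Counted over the 17 probe sets, 7 passed with miR-376a*A against control, 4 higher and 3 lower, from 5 genes. Of all probe sets 21.3% passed (3360 higher and 3628 lower, or 2634 and 4343 with each array centred on its median). The CKAP4 probe set among the 7 passed in only 3 of 16 alternatives, and its call ended without any single miRNA array or without control replicate 3, at differences of 0.14 to 0.22. With miR-376a*G against control 4 passed, all higher and from 3 genes, against 25.8% of all (3768 higher and 4686 lower). The ATL3 probe set 223452_s_at was among these 4, and its call ended without control replicate 3 (0.21) or without miR-376a*G replicate 1 (0.24), 2 (0.27) or 3 (0.26). Groups did not overlap for 8 of the 17 with miR-376a*A and 7 with miR-376a*G, where 36.7% and 39.1% of all probe sets did not overlap. Because these contrasts led to the choice of genes, and both used the same control arrays, nothing is read from those counts.

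Between the forms 3 of the 17 passed, all lower with miR-376a*A and all of RTN4, against 18.1% of all probe sets (3338 higher and 2604 lower, or 2407 and 3677 with each array centred on its median). For 4 of the 17 the 2 forms did not overlap, against 42.0% of all. The probe set 214629_x_at was among the 3 and passed in 11 of 16 alternatives. It no longer passed once replicate 1 (-0.23) or 2 (-0.25) of miR-376a*A was left out, and likewise for replicate 1 of miR-376a*G (-0.20). The other 14 probe sets had differences of -0.14 to 0.15 between the forms, and their 95% intervals together ran from -0.38 to 0.39. Medians of the 17 were 0.12, 0.11 and 0.05 in the 3 comparisons, beside 0.02, -0.017 and 0.029 over all probe sets. As with the contrasts against control, nothing is read from these counts.

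Promoter sequences are printed for ATL3 and REEP5, each of which had 1 probe set that was higher with both forms, and for RTN3, the neighbour of ATL3. ATL1, higher with both forms by its only probe set, had more than 1 start listed and is not shown. The sequences come from RefSeq (GRCh38.p14) and run from 250 bases before to 50 bases after a transcription start, 5′ to 3′ on the strand of the gene. ATL3 lies at chr11:63671327-63671626 on the minus strand, RTN3 at chr11:63681200-63681499 on the plus strand and REEP5 at chr5:112922178-112922477 on the minus strand. ATL3 and RTN3 point away from each other, with 9573 bases and 0 whole genes between their windows, and their signals differed as described above. Capitals mark the GC box GGGCGG on either strand, so that CCGCCC is its reverse complement.
ATL3: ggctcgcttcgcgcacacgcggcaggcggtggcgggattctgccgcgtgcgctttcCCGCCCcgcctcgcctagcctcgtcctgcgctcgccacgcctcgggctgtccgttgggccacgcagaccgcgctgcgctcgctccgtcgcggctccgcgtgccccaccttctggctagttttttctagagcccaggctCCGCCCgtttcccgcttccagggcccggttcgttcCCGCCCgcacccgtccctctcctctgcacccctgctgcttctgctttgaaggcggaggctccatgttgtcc
RTN3: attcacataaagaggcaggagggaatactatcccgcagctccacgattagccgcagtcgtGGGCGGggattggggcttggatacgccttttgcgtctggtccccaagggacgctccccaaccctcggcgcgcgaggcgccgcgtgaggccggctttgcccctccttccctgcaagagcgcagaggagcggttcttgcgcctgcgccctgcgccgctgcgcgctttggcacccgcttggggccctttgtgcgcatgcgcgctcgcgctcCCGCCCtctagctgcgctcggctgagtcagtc
REEP5: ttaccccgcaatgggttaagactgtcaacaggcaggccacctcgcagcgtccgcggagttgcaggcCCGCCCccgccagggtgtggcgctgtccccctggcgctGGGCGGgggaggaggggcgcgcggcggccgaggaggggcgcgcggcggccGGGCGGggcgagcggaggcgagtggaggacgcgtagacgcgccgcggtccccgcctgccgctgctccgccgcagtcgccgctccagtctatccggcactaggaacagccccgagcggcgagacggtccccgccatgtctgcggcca

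The ATL3 window held 3 GC boxes, the RTN3 window 2 and the REEP5 window 3. The motif occurs in 45.0% of 35116 RefSeq promoters of the same length, so its presence is common. A CCAAT box (CCAAT on either strand) was found once in RTN3 and not in ATL3 or REEP5, where 34.6% of promoters have one. The ER stress motif TGACGTG, searched on both strands, was in none of the 3 windows and is in 2.0% of promoters. The letters CCACG, part of the ER stress element, occurred 2 times in ATL3, 2 times in RTN3 and not in REEP5, and are in 38.1% of promoters. Matches that shared bases with another motif were kept. These are matches of letters in 1 window, and binding was not measured. REEP3 had no entry.

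The single-symbol genes whose pattern was most like ATL3 224893_at were found by the Euclidean distance between log2 profiles over the 9 arrays, each centred on its own mean, among 13690 other genes. They were GALNT1 (distance 0.297), a glycosyltransferase that starts mucin-type O-glycans, WDFY1 (0.453), GLO1 (0.497), the glyoxalase that detoxifies methylglyoxal, CAV2 (0.506), a caveolin, and NUP37 (0.537), a nuclear pore protein. Their differences from control were 1.88 to 2.35 with miR-376a*A and 1.97 to 2.40 with miR-376a*G. For GALNT1 the mean signals were 340.4, 353.8 and 54.24 in the A, G and control groups. These genes were picked for their likeness, so the values are a description.

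Other genes of the ER network were taken from 9 lists of 48 genes, of which 44 were tested by their brightest probe set, with adjustment over all 32768 probe sets. With miR-376a*A 6 rose and 6 fell of 44 (median -0.08), with miR-376a*G 4 rose and 9 fell (median -0.07), and between the forms 7 were higher and 6 lower with miR-376a*A (median 0.02). These are 12, 13 and 13 calls of 44, where 21.3%, 25.8% and 18.1% of all probe sets passed. The lists too were chosen with earlier results of these data known, so nothing is read from how the counts compare with those shares. No list was tested as a whole. The calls were spread over 8 of the 9 lists, and the sheet-associated genes KTN1 and RRBP1 had none by their brightest probe sets. Between the forms 1 of 3 other KTN1 probe sets (0.18 to 0.40) and 1 of 5 of RRBP1 (0.01 to 0.46) passed, both higher with the A form. The counts depended on single arrays. With miR-376a*A 5 of 44 passed without miR-376a*A replicate 3 and 6 without miR-376a*A replicate 2. With miR-376a*G 22 passed without control replicate 1. Between the forms 8 passed without miR-376a*A replicate 1, without miR-376a*A replicate 2 or without miR-376a*G replicate 3.

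Among the tubule-shaping hairpin genes outside the chosen set, RTN2 rose with miR-376a*A (0.39 ± 0.0884, 1.31-fold, limma adjusted p = 0.00714) and was higher than with miR-376a*G (0.47, adjusted p = 0.00244). Its other probe set gave -0.08 and 0.31 in these comparisons and did not pass. With miR-376a*G against control that other probe set passed as lower (-0.4), while the brightest gave -0.08 and did not pass. REEP4, which acts with REEP3 in mitosis, rose with miR-376a*G, from 218.5 ± 9.41 to 323.3 ± 9 (SD, n = 3; 0.53 ± 0.0936, limma adjusted p = 0.00115). Of the 6 genes tested in this list 1 passed with each form by its brightest probe set.

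In the list of 3 genes for junctions and stability of the network, TMEM33 was lower with miR-376a*G (-0.44 ± 0.0692, limma adjusted p = 0.000557). It was 1.60-fold higher with miR-376a*A than with miR-376a*G (0.68, adjusted p = 1.97e-05). Its other 4 probe sets ran from -1.52 to 0.29 with miR-376a*G, with 3 calls lower and 1 higher, so the gene had no single direction. ZFYVE27 (protrudin) was lower with miR-376a*A than with miR-376a*G (-0.45 ± 0.0973, limma adjusted p = 0.00642).

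The ER SNARE genes serve fusion of vesicles with the ER. Among the brightest probe sets of the 44 genes, SEC22B had the largest difference from control. It fell with miR-376a*G, from 460.4 ± 21.5 to 209.8 ± 11 (SD, n = 3), a difference of -1.08 ± 0.0722 (2.11-fold, limma adjusted p = 4.86e-07). It was 1.78-fold higher with miR-376a*A than with miR-376a*G (0.84, adjusted p = 4.44e-06). The other SEC22B probe set gave -0.05 and -0.14 in these comparisons and did not pass. NBAS, a tethering subunit, fell with both forms (-0.66 ± 0.116 and -0.54 ± 0.116, limma adjusted p = 0.00156 and 0.00419), while its other probe set gave 0.05 and -0.03. BNIP1 and USE1 rose with miR-376a*G (0.54 ± 0.0852 and 0.56 ± 0.134, limma adjusted p = 0.000543 and 0.00816), and their other probe sets passed in the same direction.

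Among the RAB genes of the network, RAB18 rose with both forms (0.43 ± 0.0657 and 0.33 ± 0.0657, limma adjusted p = 0.00058 and 0.00244). RAB3GAP1, a subunit of the exchange factor of RAB18, fell with miR-376a*A from 749.2 ± 53 to 501.9 ± 44.1 (SD, n = 3; -0.56 ± 0.0795, limma adjusted p = 0.000291). It was also lower than with miR-376a*G (-0.58, adjusted p = 0.000217), and its other 2 probe sets passed in the same direction in both comparisons.

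Of the contact-site tethers ESYT2 fell with miR-376a*G (-0.40 ± 0.0718, limma adjusted p = 0.00131), as did its other 3 probe sets. MOSPD2 was lower with miR-376a*A than with miR-376a*G (-0.49 ± 0.0887, limma adjusted p = 0.00201), while its other probe set gave -0.08. Of 6 genes of membrane lipid synthesis 3 fell with miR-376a*G, among them the phosphatidate phosphatases LPIN1 and LPIN2 (-0.38 ± 0.0903 and -0.38 ± 0.0787, limma adjusted p = 0.00813 and 0.00325). PCYT1B, of phosphatidylcholine synthesis, fell with miR-376a*A (-0.53 ± 0.093, limma adjusted p = 0.00155), with 0.00 in its other probe set. LPIN2 was higher with miR-376a*A than with miR-376a*G (0.56 ± 0.0787, limma adjusted p = 0.000285).

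The calls given with values for these other ER genes held in every alternative run for the gene. ZW10, whose call is outside the naming rule, held too between the forms (-0.35, limma adjusted p = 0.00943). With miR-376a*A the calls of TMEM33, SEC22B, USE1, SEC62, MOSPD2, PDZD8 and STX18 all ended without miR-376a*A replicate 2 (limma adjusted p of 0.0647 to 0.116). They also all ended without miR-376a*A replicate 3 (0.0523 to 0.116). These calls are of the brightest probe sets. Of 4 other SEC62 probe sets 3 passed higher with miR-376a*A (range of the 4, 0.34 to 1.25) and 3 with miR-376a*G (0.12 to 0.87). Of 3 other PDZD8 probe sets (-0.82 to 0.20) 1 passed lower with miR-376a*A. With miR-376a*G the calls of STIM1 and RAB10 ended without miR-376a*G replicate 1 (0.105 to 0.158), and that of PCYT1B without miR-376a*G replicate 3 (0.0785). Between the forms the calls of REEP4, BNIP1, PDZD8, VAPB and LPIN1 ended without miR-376a*A replicate 1 (0.0708 to 0.155) and without miR-376a*G replicate 3 (0.0541 to 0.118).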

How the data were processed

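Affymetrix arrays measured 9 RNA samples in 3 groups of 3. The authors deposited linear signal intensities, 1 for every probe set on each array. The software was GCOS 1.4.0.036, per the submitters' processing notes. Its algorithm and scaling were not given in the sources used here. Arrays shared a trimmed mean (2% trimmed), which hides any shift common to all transcripts, and the number of arrays limits the precision (median SE 0.102).

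The table held 54675 probe sets, and the 62 array controls among them were not tested. Platform annotation gave 41091 probe sets 1 symbol, 1801 several and 11721 none. Values were analysed as log2(signal + 16) in R 4.3.3 by limma 3.58.1 (linear model with contrasts and a moderated test with an intensity trend; 6 residual and 6.72 prior degrees of freedom). Each probe set was kept apart, tests were two-sided, and the 3 comparisons were adjusted separately. The procedure was also run on simulated data with the same spread in every group, unlike these arrays, and nothing is read from that run. No arrays were identical.

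The genes, lists and tests were chosen with earlier results of these data known. A test of the 17 probe sets between the forms had been planned. Its calls are listed with the counts, but nothing is read from them, because that contrast is the difference of the contrasts that led to the choice. Values on each array were printed for probe sets whose groups did not overlap or that passed between the forms, and for the brightest of each gene. From each other list up to 4 genes of smallest adjusted p that passed in at least 1 comparison were named, with their brightest probe set. In the other lists 47 of 48 symbols were matched, and RAB3GAP2, ESYT3 and LPIN3 were below the filter. Alternatives covered scaling, offset, filter, variance model, arrays in the fit, the replicate block, 1 probe set per gene and leaving out each array. Tables were made with pandas 2.3.3 and numpy 2.4.6, and figures with matplotlib 3.10.9, under Python 3.11.15.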

Additional observations from a re-analysis of the deposited data

Results flagged for a closer look

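The effects of the 2 forms against control differed by the direct limma test of miR-376a*A against miR-376a*G for 12 of the named ER-network genes outside the chosen set. Higher with miR-376a*A were SEC22B (0.84), TMEM33 (0.68), LPIN2 (0.56), RTN2 (0.47), PDZD8 (0.35), LPIN1 (0.30) and VAPB (0.19). Lower were RAB3GAP1 (-0.58), MOSPD2 (-0.49), ZFYVE27 (-0.45), REEP4 (-0.32) and BNIP1 (-0.30). These values are from the brightest probe set of each gene. Of 3 other PDZD8 probe sets (-1.03 to 0.17) 1 passed, lower with miR-376a*A, so PDZD8 had no single direction. The calls of PDZD8, LPIN1, VAPB, REEP4 and BNIP1 ended without miR-376a*A replicate 1 (adjusted p of 0.0708 to 0.155).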

How the results depend on the processing

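ATL1 with miR-376a*A lay at 0.52 to 0.64 over the other scalings, offsets, filters and models, and RTN4 211509_s_at at -1.07 to -1.0. With 1 probe set per gene 4177, 4993 and 3671 probe sets passed in the comparisons of miR-376a*A and miR-376a*G with control and of the forms, and 3, 2 and 1 of the ER-shaping genes, since fewer probe sets were tested. Of the other ER genes 7 passed with miR-376a*A with no intensity trend and 6 with only the 6 arrays compared. Leaving out 1 array gave 5 to 16, 11 to 22 and 8 to 15 other ER genes, and 3827 (without miR-376a*G replicate 2) to 8421 (without control replicate 1) probe sets between the forms. Where the construction shows no cause, the cause was not tested. Samples of the same number did not deviate together (correlations -0.103 to 0.0628 over 9 pairs), and with the replicate number as a block 6430, 7952 and 5397 probe sets passed, with 6, 4 and 3 of the 17. Of 837 values of the 17 probe sets under alternatives, 14 moved by more than the spread between replicates, all with another scaling or offset. Leaving out 1 array, or changing the filter or the model, could not move a value by more than that spread. Most of the 837 values therefore could not have moved, and nothing is read from their number. With arrays centred on their median the difference of ATL3 224893_at between the forms was -0.05. Signals near the filter, as in ATL3 223453_s_at and CKAP4 226526_s_at, limit what those probe sets can show.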
